A study of Mus musculus with 96 samples.

Results

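Closed primed enhancers are GATA6 binding regions that carried the histone pattern of a primed enhancer in mouse embryonic stem (ES) cells and were classed as closed chromatin there, before any GATA6 was induced. Both classes were read from the deposited table of GATA6 binding regions, where 3652 of 42403 regions carried both. They made up 51.1% of the 7146 primed enhancers in the table, the others being of moderate (3291) or high (203) accessibility and together called open primed enhancers below, and 14.0% of the 26003 closed regions. Neither class was made from the binding values described here. Every region of the table is a GATA6 peak of at least some time point, so that a rise in GATA6 is part of how the regions were collected.

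GATA6, SOX17, OCT4, SOX2 and ESRRB were profiled by ChIP-seq, which sequences the DNA that an antibody pulls down with a factor after crosslinking. The cells were KH2 ES cells (C57BL/6 x 129/Sv) with a doxycycline (Dox)-inducible GATA6 cassette, a tagged transgene carried by selected clones, grown with LIF on feeder cells that were removed before fixation. Samples were fixed at day 0 (no Dox), at 8 and 16 h of 1 µg/mL Dox, and on days 1, 2 and 4. Where 6 values of a factor are listed in a row, they follow this order. XEN cells (line X10, CD1 strain), an extra-embryonic endoderm line without the cassette, were grown without LIF and without Dox. In a further experiment, GATA6 and SOX17 were profiled 48 h after Dox was added together with siRNA against Oct4 or with a non-targeting control siRNA, in cells of a single clone.

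A primed enhancer is a stretch of distal DNA whose nucleosomes carry monomethylated histone H3 lysine 4 but lack the acetylation of lysine 27 that marks active enhancers. GATA6 is a zinc finger factor able to bind motifs wrapped on nucleosomes, and it directs cells of the early embryo to primitive endoderm (PrE), the lineage that XEN cells represent. SOX17 is an HMG box factor of the same lineage that is itself activated by GATA6. OCT4 and SOX2 bind next to each other on composite OCT:SOX motifs and, with the nuclear receptor ESRRB, maintain pluripotency. These last 3 are called pluripotency transcription factors (PTFs) below.

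The table gives 45 columns of values in RPM, the reads on a region scaled to the size of the library. There are 96 labelled libraries of 47 conditions, and the inputs of the siRNA cells have no such column. The libraries of a condition were pooled into a single value, so that no value has a replicate check and differences are described by their size alone. Sequencing depth could be read from the steps between low values in all but 5 columns (day 0 of SOX17, OCT4, SOX2, ESRRB and input) and ran from 5.42 to 69.4 M reads, with a median of 15.3 M. OCT4 in XEN cells is a single library. SOX17 at 16 h and ESRRB at 8 h have 2 labelled libraries each, but their values fit a single step. GATA6 before Dox is also a single library, whose values are whole multiples of 0.163 RPM, the lowest value of the column. The median closed primed enhancer stood at 3 of these steps and 20.8% at 1. Since no region is at 0 in any column, 1 read may have been added to each count before scaling, and the reads behind these values would then be 1 fewer. The table holds no expression, and neither the identity of the cells nor the level of OCT4 after siRNA was analysed here.

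The closed primed enhancers lay mostly inside genes. By the RefSeq annotation of the GRCm38 assembly (mm10), 2221 summits (60.8%) were in introns, 1311 (35.9%) were intergenic, 67 were in exons and 53 within 1 kb of a transcription start. Among all regions, 43.3% were intronic and 48.8% intergenic. Their median distance to a start was 25.3 kb, against 27.3 kb for all regions. Open primed enhancers had 31.9 kb, and closed regions in which no histone mark was classed had 49.5 kb. The closed primed enhancers had a median width of 583 bp, within a range of 179 to 3738 bp. Since RPM counts all reads on a region, the wide regions hold the highest values.

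The sequences of a few members show what GATA6, SOX17 and the PTFs were given to bind. All were read from the plus strand of the RefSeq copy of GRCm38.p6 unless stated otherwise, and capitals mark the best match of a region to the GATA6, SOX17 or OCT:SOX motif. The first stretch, chr12:31229378-31229667, lies in the intergenic member chr12:31227881-31230421, 35.7 kb from the start of Lamb1, a laminin chain of the basement membrane, which had the highest GATA6 signal of all members at 8 h. Its capitals are, in order, the GATA6, SOX17 and OCT:SOX matches, and 34 bp separate the summit of GATA6 from the start of the last of these.
Lamb1 region: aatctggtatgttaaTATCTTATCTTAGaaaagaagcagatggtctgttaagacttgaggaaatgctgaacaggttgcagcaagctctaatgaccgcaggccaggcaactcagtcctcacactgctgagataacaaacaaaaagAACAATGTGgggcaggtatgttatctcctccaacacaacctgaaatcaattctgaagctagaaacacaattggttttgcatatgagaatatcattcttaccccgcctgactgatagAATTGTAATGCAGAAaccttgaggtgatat

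The next stretches contrast the member with the highest SOX17 at day 4 with members that gained OCT4 anew. The stretch chr3:121617195-121617317, from the intergenic member chr3:121616927-121618897, carries its GATA6 match and then its SOX17 match. The member chr10:75208698-75209229, 3.20 kb from the start of Specc1l, had the highest OCT4 at day 2 among members that began at or below the median OCT4. Its stretch chr10:75208832-75208896 shows an OCT:SOX match of low score that starts 13 bp before the summit and spans it. The stretch chr7:117990927-117991056 comes from another of the highest members by that ranking, the intergenic chr7:117990699-117991141, 125 kb from the start of Rps15a, and its capitals are the SOX17, GATA6 and OCT:SOX matches.
highest SOX17 at day 4: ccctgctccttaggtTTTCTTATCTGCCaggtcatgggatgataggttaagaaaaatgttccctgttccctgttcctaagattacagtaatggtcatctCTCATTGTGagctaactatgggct
Specc1l region: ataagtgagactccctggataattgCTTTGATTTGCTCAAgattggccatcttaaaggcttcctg
Rps15a region: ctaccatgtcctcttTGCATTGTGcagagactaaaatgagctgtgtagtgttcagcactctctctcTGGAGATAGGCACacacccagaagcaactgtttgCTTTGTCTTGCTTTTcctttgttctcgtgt

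GATA6 reached the closed primed enhancers within 8 h, and its median then changed little. Its median over the 3652 members was 0.490, 1.72, 1.68, 1.48, 1.28 and 1.57 RPM at the 6 time points, and XEN cells had 1.61. Input, sequenced without antibody, stayed between 0.438 and 0.551 over the same times. The spread among members was wide, since the middle 50% of them held 0.817 to 3.63 RPM at 8 h and 0.716 to 3.67 at day 4.

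A gain is called here where log2(RPM + pseudocount) rose by at least 1, with the pseudocount set for each factor at percentile 5 of its values. GATA6 rose by this measure at 2415 members (66.1%) at 8 h, against 60.4% of all regions, and at 2290 (62.7%) by day 4, against 57.0%. The median change was 1.61 on the log2 scale at 8 h and 1.47 at day 4, while the median region of the table moved by 1.38 and 1.24. Relative to that shift, 26.9% of members and 22.4% of all regions gained at 8 h.

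This steady median hid a turnover of regions that the whole table shared. GATA6 fell by at least 1 between 8 h and day 4 at 1274 members (34.9%; 34.8% of all regions) and rose at 1161 (31.8%; 30.9% of all regions). Of the members that gained GATA6 at 8 h, 50.6% were among those that then fell (54.5% over all regions), and 58.3% counted as gained at day 4 too (52.3%). Across the 3652 members, the Spearman correlation of GATA6 at 8 h with GATA6 at day 4 was 0.16 and turned to -0.33 once values were divided by width. Between day 4 and XEN cells it was 0.82. Over all regions these values were 0.18, -0.31 and 0.78. These correlations are descriptions over regions that share libraries, depth and width.

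XEN cells held GATA6 on these regions much as the induced cells did at day 4. It was at least 1 higher on the log2 scale in XEN cells at 463 members (12.7%), against 14.4% of all regions, and at least 1 lower at 414 (11.3%), against 11.7%. The cell line, strain, culture and transgene differ between these cells at once, and their parts cannot be told apart.

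**Figure D1:**
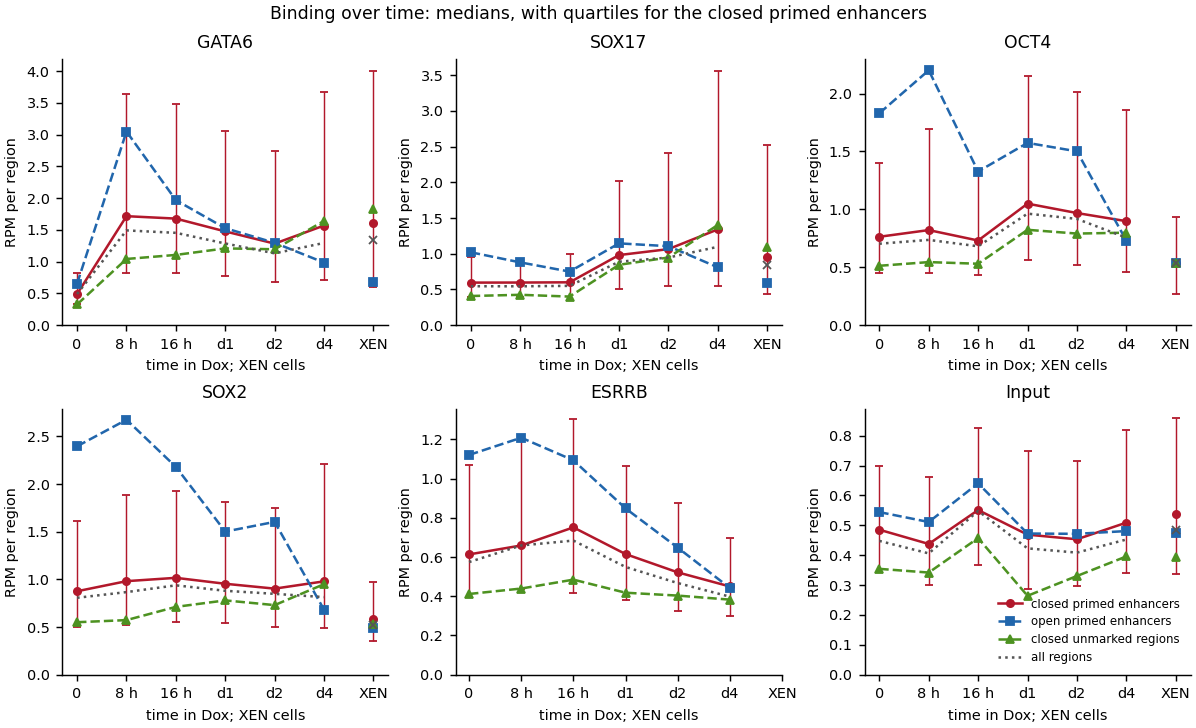
Median RPM of each factor at closed primed enhancers, open primed enhancers, closed regions without a classed histone mark and all regions, over time in Dox and in XEN cells, with vertical bars over the middle 50% of the closed primed enhancers. From day 0 to 8 h GATA6 at closed primed enhancers goes from 0.490 to 1.72 RPM, ending at 1.57, while the open primed enhancers go from 3.05 RPM at 8 h down to 0.985 by day 4.

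The chromatin state before Dox went with when GATA6 came, and not only with how much. At open primed enhancers GATA6 reached a median of 3.05 RPM at 8 h but was down to 0.985 by day 4, and XEN cells had 0.674. At closed regions without a classed mark the same values were 1.04, 1.64 and 1.84. The closed primed enhancers stood between these courses, beginning below the open ones and ending above them.

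The counts of gains followed the same order. GATA6 was gained at 8 h at 85.6% of open primed enhancers, 66.1% of closed primed and 51.5% of closed unmarked regions, and at day 4 at 41.5%, 62.7% and 68.6%. A fall from 8 h to day 4 was seen at 64.3%, 34.9% and 25.1%, respectively. At 8 h the closed primed share was below the open primed share on all 20 chromosomes counted (1 to 19 and X) and above the closed unmarked share on all 20, and at day 4 it was above the open primed share on all 20. The open primed enhancers also held more OCT4, SOX2 and ESRRB before Dox, with medians of 1.83, 2.40 and 1.12 RPM against 0.763, 0.876 and 0.613, and the part of this in the difference was not tested.

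The authors grouped all regions into Early, Late and Transient by their GATA6 course. Of the closed primed enhancers 1269 (34.7%) were Early, 1148 (31.4%) Late and 1235 (33.8%) Transient, against 28.0%, 33.6% and 38.4% of all regions. Since GATA6 made these classes, its values in them only describe the classes: median GATA6 at 8 h and at day 4 was 3.29 and 3.69 RPM in Early, 0.551 and 1.92 in Late and 2.33 and 0.591 in Transient members. Early members were also the widest, with a median of 828 bp against 473 and 537 bp.

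**Figure D2:**
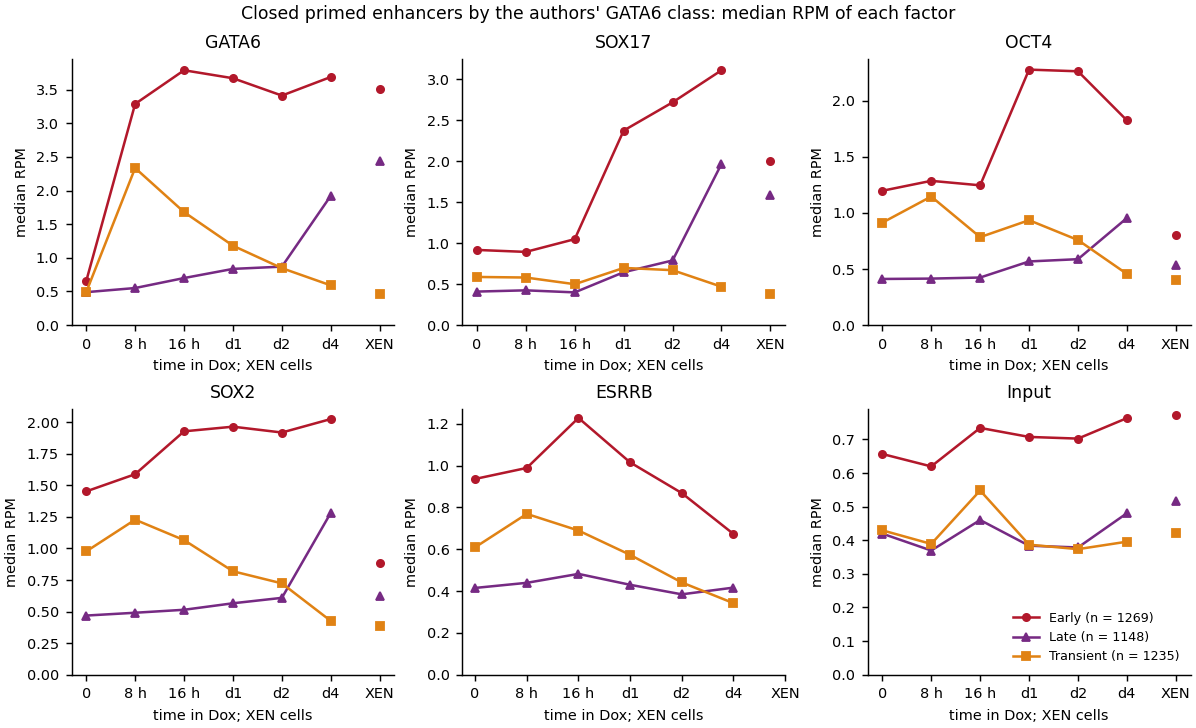
Median RPM of each factor at Early, Late and Transient closed primed enhancers over time in Dox and in XEN cells, with 1 panel per factor and input. SOX17 reaches 3.11 RPM at day 4 in Early, 1.97 in Late and 0.469 in Transient members, and OCT4 is highest in Early members from day 1.

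SOX17 arrived after GATA6, between 16 h and day 1. Its median over the members was 0.596, 0.597, 0.600, 0.982, 1.07 and 1.34 RPM along the time course, and XEN cells had 0.949. It had gained at 1079 members (29.5%) by day 1, against 25.8% of all regions, and at 1805 (49.4%) by day 4, against 44.5%. The median region of the table rose by 0.49 at day 1 and 0.79 at day 4 on the log2 scale, and relative to this shift 14.3% and 31.1% of members gained, against 11.9% and 25.6% of all regions.

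SOX17 gains differed by the course of GATA6. By day 4 it had gained at 845 Early members (66.6%) and 898 Late members (78.2%), but at 62 Transient members (5.02%). These shares were 62.0%, 72.9% and 6.99% for the same classes over all regions. At Early members its median rose from 0.918 to 3.11 RPM, and at Late members from 0.410 to 1.97. At Transient members it ended lower than it began, at 0.469 after 0.588. Of the 1805 members that gained SOX17 by day 4, 1683 (93.2%) had gained GATA6 by then, and these were 73.5% of the members with a GATA6 gain, while over all regions the same overlap was 89.8% and 70.1%. The share with a SOX17 gain at day 4 was 25.4% at open primed enhancers and 60.8% at closed unmarked regions. That of the closed primed enhancers was above the former on all 20 chromosomes and above the latter on 1.

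OCT4 and SOX2 kept their median levels through the induction. The median of OCT4 over the members was 0.763, 0.821, 0.731, 1.05, 0.968 and 0.898 RPM. That of SOX2 was 0.876, 0.982, 1.02, 0.954, 0.903 and 0.98 RPM. In XEN cells, a line that does not express OCT4, OCT4 from a single library was at 0.533 RPM beside an input of 0.537, and SOX2 was at 0.586.

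Beneath these medians, gains and losses were both common. OCT4 had gained at 651 members (17.8%; 14.6% of all regions) by day 2 and at 920 (25.2%; 21.0% of all regions) by day 4, when it had fallen at 559 (15.3%; 19.4%). SOX2 had gained at 255 members (6.98%; 6.01%) by day 2 and at 1033 (28.3%; 24.0%) by day 4, when it had fallen at 699 (19.1%; 24.1%). Gains of both were seen where SOX17 gained: 900 of the 920 members with an OCT4 gain at day 4 (97.8%) and 1010 of the 1033 with a SOX2 gain (97.8%) had gained SOX17, and these were 49.9% and 56.0% of the SOX17 gains. Over all regions 97.0% and 96.0% of such gains lay in SOX17 gains, of which they were 45.7% and 51.7%, so that this overlap is one of the whole table. The levels of SOX17 and SOX2 across members had a Spearman correlation of 0.95 at day 4 and of 0.89 before Dox, when SOX17 was at 0.596 RPM, and that of SOX17 with input at day 4 was 0.72. Signals of different antibodies and of input thus went together across regions, and the part of this in the gains was not tested. Input itself rose at 54 members (1.48%), against 1.08% of all regions, and at 2.94% of members with a SOX17 gain.

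By GATA6 class, OCT4 had gained by day 2 at 32.9% of Early, 16.3% of Late and 3.72% of Transient members. Its falls by day 4 were at 6.07%, 0.17% and 38.9% of them. SOX2 had gained by day 4 at 30% of Early and 56.2% of Late members, and at 0.57% of Transient ones, where it fell at 46.3%. Over all regions of any class the SOX2 gain was at 24.0%. It is not set here beside each class, so the split of SOX2 gains is not shown to be particular to the members. All regions of these classes were in the same order, with OCT4 gains at 28.9%, 14.5% and 4.22%, OCT4 falls at 9.36%, 0.407% and 43.4%, and a SOX2 fall at 51.7% of Transient regions. Late members held the least OCT4 before Dox (0.412 RPM), which leaves little room for a fall.

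ESRRB, a direct partner of the pluripotency network, was seldom gained and was lowest at day 4. Its median was 0.613, 0.659, 0.751, 0.615, 0.522 and 0.450 RPM. It had gained at 13 members (0.356%) by day 1, against 0.271% of all regions, and had fallen at 667 (18.3%) by day 4, against 25.2%. The median region of the table fell by 0.40 on the log2 scale over those 4 days. The falls were at 21.8% of Early, 3.66% of Late and 28.2% of Transient members, against 27.1%, 3.55% and 42.7% of all regions in these classes. ESRRB was not analysed here in XEN cells.

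The deposited PTF class divides the members by where PTF peaks were called. PTFs were called before Dox at 552 members (15.1%; 20.8% of all regions), only during induction at 772 (21.1%; 16.6%), a class the authors term ectopic, and not at all at 2328 (63.7%; 62.6%). OCT4 had a median of 2.71 RPM before Dox, 2.63 at day 2 and 1.24 at day 4 in the first class. In the ectopic class it went from 1.14 to 2.55 and 2.33 RPM, and in the class without PTFs from 0.538 to 0.625 and 0.641. As these classes were made from the same binding, the values describe them.

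GATA6 and SOX17 were not used to make the PTF classes. At 8 h the median of GATA6 was 6.87 RPM at members with PTFs before Dox, 2.40 at ectopic members and 1.22 at members without PTFs. By day 4 the order had changed, to 1.67, 4.18 and 1.2 RPM. SOX17 at day 4 was likewise highest at ectopic members, at 4.16 RPM against 1.41 and 0.942, and had gained at 74.0% of them against 31.3% and 45.6% (71.2%, 22.5% and 44.8% over all regions). These classes differ in width as well, with medians of 938, 806 and 496 bp.

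Closed and open primed enhancers differed in motifs as well as in time course. A GATA6 motif was found in 92.7% of closed primed, 87.2% of open primed, 95.8% of closed unmarked and 89.7% of all regions, with a median distance of 49 bp from the summit in the closed primed ones. Matches of high or mid score by the authors' grouping were in 64.8%, 52.8%, 73.5% and 59.8%. For the composite OCT:SOX motif the closed primed (21.5%) and open primed (35.0%) enhancers were in the reverse order. SOX17 matches of high or mid score were in 43.8% of members and 42.6% of all regions, and ESRRB matches in 24.6% and 22.5%.

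Among the members, gains and falls of a factor followed the score of its motif. GATA6 had gained at 8 h at 39.7% of members with no GATA6 motif, 50.1% with a low, 71.1% with a mid and 81.8% with a high score, while all regions went from 46.2% to 73.1%. SOX17 had gained by day 4 at 36.3%, 45.1%, 57.4% and 64.5% along the groups of the SOX17 motif, with 32.7% and 57.0% at the ends for all regions. For OCT4 and ESRRB it was the falls that were counted along the motif. A fall needs signal before Dox, and the levels before Dox are not set here beside these motif groups. OCT4 had fallen by day 4 at 4.73% of members with no OCT:SOX motif and at 52.2% of those with a high score, and ESRRB at 8.41% and 63.3% along its own motif. All regions gave 6.31% and 62.1% for OCT4 and 14.9% and 69.8% for ESRRB. The motif groups differed in width too: the median was 405 bp without a GATA6 motif and 712 bp with a high one.

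The GATA6 and SOX17 motifs went with early and with late binding, respectively. GATA6 had gained at 8 h at 76.4% of the 1298 members with a high or mid GATA6 score alone and at 47.3% of the 533 with a high or mid SOX17 score alone. SOX17 had gained by day 4 at 35.8% of the former and 65.7% of the latter, groups of like median width (565 and 553 bp). Between 8 h and day 4, GATA6 itself fell at 45.5% of the former and 20.1% of the latter, and rose at 20.9% and 49.7%. Over all regions the gains of GATA6 were at 66.6% and 49.5%, those of SOX17 at 34.9% and 55.2%, and the falls of GATA6 at 39.8% and 29.5%. Members with both (1067) had the early gain of GATA6, at 75.5%, and gained SOX17 at 58.1%. Over all regions whatever their motifs, these gains were at 60.4% and 44.5%, and the rise of GATA6 was at 30.9%.

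**Figure D3:**
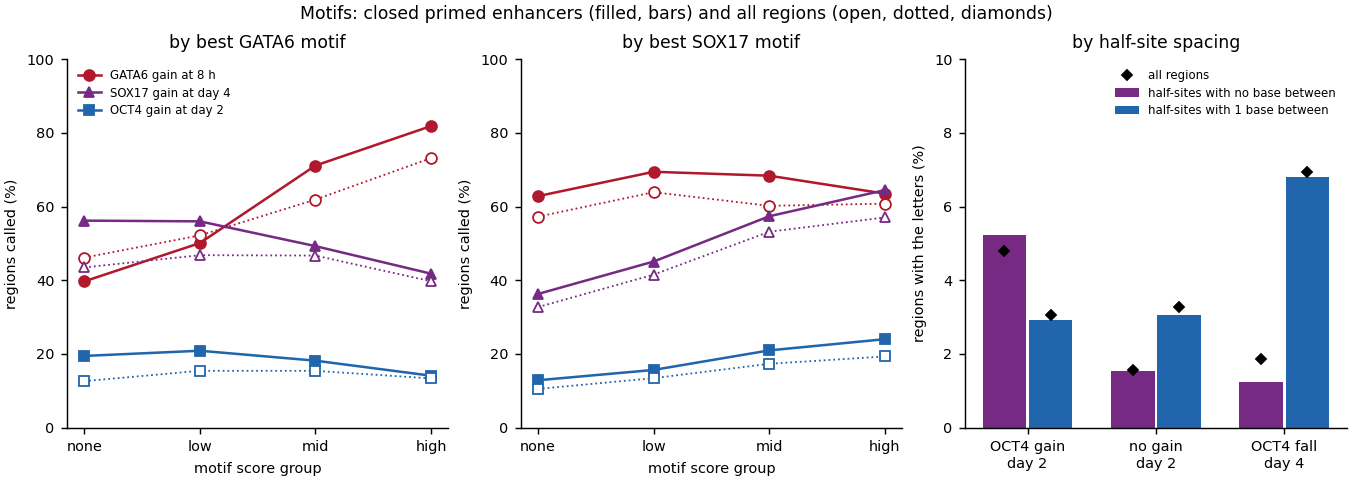
Share of closed primed enhancers (filled symbols, bars) and of all regions (open symbols, diamonds) with a gain of GATA6 at 8 h, SOX17 at day 4 or OCT4 at day 2 by the score group of the best GATA6 motif (left) or SOX17 motif (middle), and share that holds SOX and OCT letters with 0 or 1 base between them by the course of OCT4 (right). GATA6 gains at 8 h go from 39.7% to 81.8% along the GATA6 motif, and SOX17 gains at day 4 from 36.3% to 64.5% along the SOX17 motif.

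The spacing of SOX and OCT letters differed between members that gained OCT4 and members that lost it. A pair of strings was searched on both strands, ATTGTATG, with no base between the SOX letters and the OCT letters, and ATTGTNATG, with 1 base between them as in the composite motif. SOX17 is known to pair with OCT4 on the compressed spacing and SOX2 on the spaced one. The strings were chosen after several had been looked at, and a site cannot match both. The examples are the members with the highest OCT4 at day 2 among those with only that string. The compressed string is shown from chr2:136855254-136855293 (minus strand), 35.9 kb from the start of Slx4ip, and of chr4:43950453-43950492, 7.11 kb from that of Glipr2. The spaced string is shown from the Lamb1 region at chr12:31229623-31229663 and from chr15:59796963-59797003, 148 kb from Trib1.
compressed, near Slx4ip: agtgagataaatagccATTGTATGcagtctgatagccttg
compressed, near Glipr2: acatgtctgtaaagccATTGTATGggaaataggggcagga
spaced, near Lamb1: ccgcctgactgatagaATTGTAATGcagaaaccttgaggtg
spaced, near Trib1: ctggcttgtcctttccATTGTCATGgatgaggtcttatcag

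The compressed string was found in 80 members (2.19%; 2.04% of all regions) and the spaced string in 111 (3.04%; 3.24%). Of the 651 members that gained OCT4 by day 2, 34 (5.22%) held the compressed string, and of the 3001 others 46 (1.53%). The spaced string was in 2.92% and 3.07% of these. Of the 559 members at which OCT4 fell by day 4 the order was the reverse, with 7 (1.25%) holding the compressed and 38 (6.80%) the spaced string. Over all regions the compressed string was in 4.78% of those with an OCT4 gain and 1.57% of the others, and the spaced one in 6.95% of those with a fall. Members with a gain were wider (774 against 553 bp), and per 100 kb of sequence the compressed string occurred 5.89 times in them and 2.34 times in the others. These strings are in few regions and say nothing of the members without them.

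The 2 regions of each kind shown above were picked by high OCT4 at day 2 and so do not illustrate a fall. On all of them OCT4 at day 4 was above its value before Dox. OCT4 near Slx4ip was 2.88, 1.90, 4.0, 16.9, 20.8 and 17.7 RPM, and SOX17 went from 1.98 to 29.6 RPM at day 2. OCT4 near Glipr2 was 2.63, 1.90, 3.85, 11.6, 16.7 and 11.5 RPM, and SOX17 went from 2.91 to 30.7 RPM at day 2. Both already held OCT4 above the upper quartile of the members (1.396 RPM) before Dox. SOX17 on them was at 4.45 and 6.55 RPM at 16 h and at 19.6 and 22.1 RPM at day 1. Near Trib1, OCT4 was already at 5.58 RPM before Dox and 6.95 at 8 h, rose to 14.9 at day 2 and was back at 7.18 at day 4. Over the 76 members with the compressed string alone, median OCT4 was 1.22, 2.18 and 1.75 RPM before Dox, at day 2 and at day 4, against 1.42, 1.44 and 0.991 for the 107 with the spaced string alone, and 61.8% against 43.0% were Early.

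The member near Lamb1 had the highest GATA6 signal at 8 h. GATA6 on it was 0.817, 62.2, 56.6, 35.2, 43.2 and 36.5 RPM, with 43.3 in XEN cells. OCT4 was at 28.3 RPM before Dox, rose through 38.8, 39.2 and 49.1 to 57.6 at day 2, and dropped to 32.6 by day 4, with 4.0 in XEN cells. SOX17 was at 6.81 RPM before Dox and 8.60 at 16 h, and then at 33.1, 44.1 and 32.7 RPM at days 1, 2 and 4. GATA6 thus came within 8 h to a region already holding OCT4 and SOX2 (23.0 RPM), and SOX17 followed at day 1, when OCT4 was still rising.

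The members that came next by GATA6 at 8 h parted after it. On chr10:17599160-17601714, intergenic and 122 kb from Cited2, a transcriptional coregulator, GATA6 was 1.47, 44.4, 31.6, 16.1, 12.9 and 11.4 RPM from before Dox to day 4 and 14.2 in XEN cells, and SOX17 did not exceed 6.54 RPM over the time course, although it was 7.05 RPM with control and 11.6 with Oct4 siRNA. On chr5:140814351-140817537, in an intron of Gna12, a G protein alpha subunit, GATA6 was 3.10, 43.5, 48.6, 35.5, 34.5 and 35.5 RPM and 52.0 in XEN cells. SOX17 there went from 6.87 RPM to 31.3, 40.6 and 47.6 at days 1, 2 and 4. Of these regions, the one with more GATA6 at day 4 also held more SOX17.

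The members with the most GATA6 at day 4 had gained part of it by 8 h and were higher still at day 4. On chr1:75025764-75028239, in an intron of Nhej1, a DNA end-joining factor, GATA6 was 1.31, 17.3, 10.8, 14.6, 18.7 and 38.3 RPM and 27.9 in XEN cells. In an intron of Lyrm7 (chr11:54844779-54847212) it was 1.14, 9.86, 13.3, 17.9, 23.8 and 38.3 RPM and 52.7 in XEN cells. In an intron of Prkce, a protein kinase C gene (chr17:86536030-86538612), it was 2.78, 9.45, 15.5, 19.6, 20.9 and 37.1 RPM and 41.5 in XEN cells. All 3 were Early by class, although each held far more GATA6 at day 4 than at 8 h.

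SOX17 at day 4 was highest on the chr3:121616927-121618897 member, whose motifs are printed above. It was 3.51, 3.16, 4.30, 17, 28.5 and 48.9 RPM from before Dox to day 4 and 50.4 in XEN cells. SOX2 rose with it, from 7.75 to 23.1 RPM, and OCT4 from 4.01 to 12.5. In XEN cells OCT4 was 5.20 RPM and SOX2 9.14, beside 3.56 RPM of input.

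The members that gained OCT4 from a low level gained SOX17 at the same times. On the Specc1l member OCT4 was 0.506, 0.415, 0.623, 3.09, 7.22 and 1.89 RPM and SOX17 was 0.468, 0.381, 0.650, 4.89, 7.88 and 0.899 RPM, while GATA6 was 3.01 RPM at day 2. In an intron of Gnai3 (chr3:108117075-108117572), another G protein alpha subunit, OCT4 was 0.680, 0.387, 1.19, 4.06, 7.07 and 10.9 RPM and SOX17 reached 9.34 at day 2. On the Rps15a member OCT4 was 0.545, 0.480, 0.783, 1.75, 6.21 and 5.51 RPM and SOX17 reached 11.2 at day 2. GATA6 at day 2 was 3.26 RPM on the Gnai3 and 2.29 on the Rps15a member, so that the 3 lay above the median of all members (1.28 RPM) and around their upper quartile (2.75). In XEN cells SOX17 was at 0.354, 0.596 and 0.566 RPM on these members and OCT4 at 0.400, 0.533 and 0.267, beside 0.363, 0.274 and 0.532 RPM of input. They are narrow (442 to 531 bp), unlike the members ranked by GATA6 or SOX17.

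**Figure D4:**
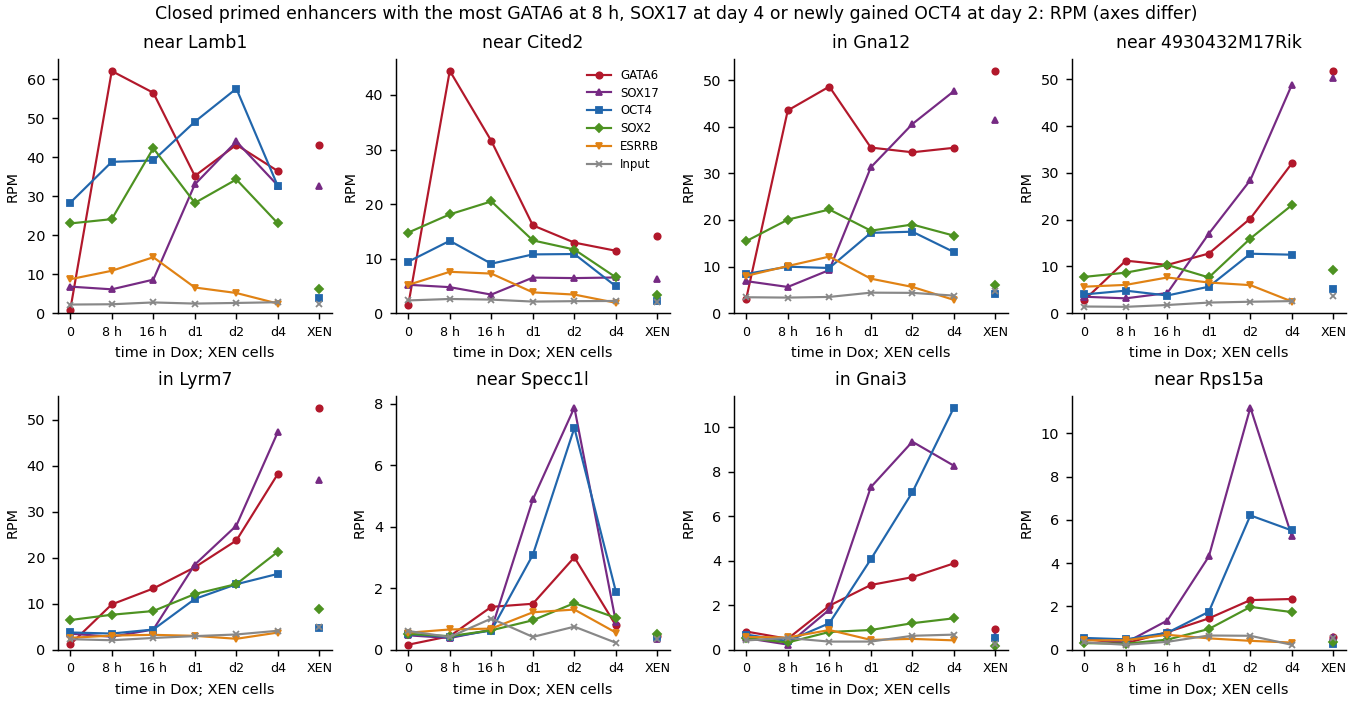
RPM of each factor and of input over time in Dox and in XEN cells on the 8 closed primed enhancers with the most GATA6 at 8 h, the most SOX17 at day 4 or the most OCT4 at day 2 among those low in OCT4 before Dox. Vertical axes differ. GATA6 leads near Lamb1, near Cited2 and in Gna12, SOX17 and GATA6 climb together near 4930432M17Rik and in Lyrm7, and SOX17 and OCT4 rise from day 1 near Specc1l, in Gnai3 and near Rps15a.

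With Oct4 siRNA, GATA6 moved in both directions and SOX17 mostly up. Median GATA6 over the members was 1.97 RPM with control siRNA and 2.12 with Oct4 siRNA, and median SOX17 was 0.926 and 1.60. Taking a change of 0.5 on the log2 scale, GATA6 was lower at 719 members (19.7%; 21.2% of all regions) and higher at 912 (25%; 21.9%). SOX17 was lower at 113 (3.09%; 3.95%) and higher at 2043 (55.9%; 51.4%). The median region of the table was 0.52 higher in SOX17, and relative to that shift SOX17 was lower at 15.2% of members and higher at 23.8%, against 19.0% and 19.9% of all regions.

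The direction of GATA6 went with the PTF class and the course of GATA6. GATA6 was lower at 36.2% of members with PTFs before Dox and higher at 6.16%. At ectopic members the shares were 20.3% and 16.5%, and at members without PTFs 15.5% and 32.3%. The median changes were -0.32, -0.03 and 0.15 on the log2 scale. Transient members were lower at 37.5% and higher at 6.07%, and Late members lower at 4.70% and higher at 56.2%. Over all regions, GATA6 was lower at 35.7% of the class with PTFs before Dox. All Transient regions were lower at 36.3% and higher at 5.67%, and all Late regions lower at 5.43% and higher at 48.6%. The share with higher GATA6 was thus larger among Late members than among all Late regions. The other shares of all regions by PTF class are drawn as diamonds in the plot of siRNA changes and are not listed here. The split by PTF class is therefore not shown to be particular to the members.

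The share with higher SOX17 followed the same order of GATA6 classes. The counts here include the shift of 0.52 of the median region, and shares by class relative to that shift were not computed. SOX17 was higher at 76.1% of Late, 57.9% of Early and 35.1% of Transient members, and at 71.5%, 54.3% and 31.8% of all regions in these classes. Of the 912 members with higher GATA6, 809 (88.7%) had higher SOX17, and these were 39.6% of the members with higher SOX17 (86.4% and 36.9% over all regions). Of the 113 members with lower SOX17, 84 (74.3%) had lower GATA6, which were 11.7% of those with lower GATA6 (70.5% and 13.1%).

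**Figure D5:**
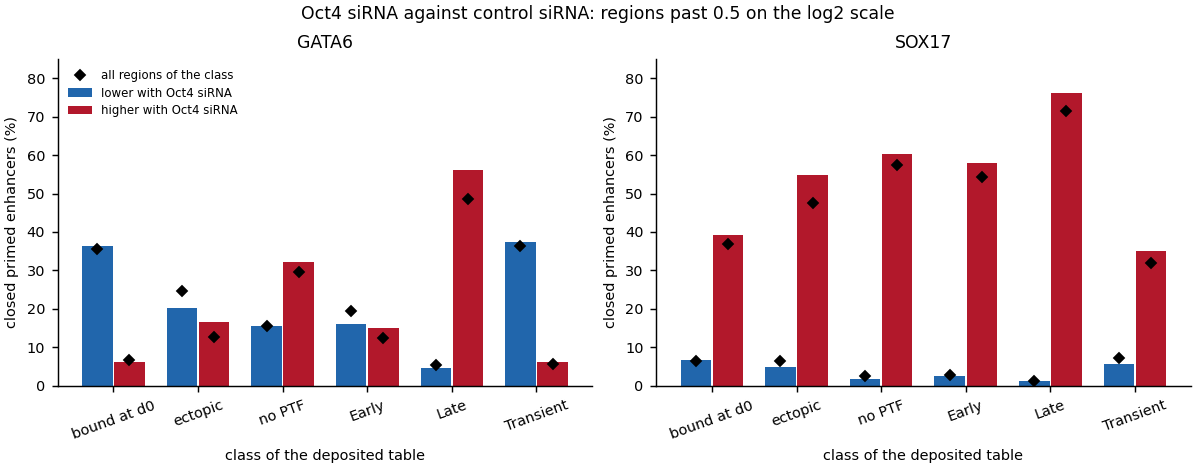
Share of closed primed enhancers at which GATA6 (left) or SOX17 (right) was lower (blue) or higher (red) by at least 0.5 on the log2 scale with Oct4 siRNA than with control siRNA, by PTF class and GATA6 class, with diamonds for all regions of the class. GATA6 is lower at 36.2% of members bound by PTFs before Dox and higher at 56.2% of Late members.

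Among members with at least the median GATA6 in control cells, GATA6 fell most with Oct4 siRNA in an intron of Rb1, the retinoblastoma gene (chr14:73219475-73220115), from 2.11 to 0.294 RPM. During induction GATA6 there was 9.03 RPM at 8 h and 0.787 at day 4, and OCT4 was 7.48 RPM before Dox and 0.570 at day 4. It rose most on an intergenic member 3.98 kb from Ube2g2, a ubiquitin-conjugating enzyme (chr10:77618019-77618831), from 2.25 to 9.38 RPM, with SOX17 going from 0.966 to 6.48. In the time course GATA6 on the Ube2g2 member was 1.69 RPM at day 2 and 8.68 at day 4, and SOX17 0.868 and 7.64. The time course was sequenced with single-end reads and the siRNA libraries with paired-end reads, and how their RPM values compare was not tested. GATA6 also rose with Oct4 siRNA in introns of Vgll4 and of Tcf7l2, a mediator of Wnt signaling, from 3.24 to 11.7 and from 2.18 to 7.63 RPM. All 3 of these are Late members without PTFs. The members highest in OCT4 gain fell in both factors. On the Specc1l member GATA6 went from 4.0 to 2.23 RPM and SOX17 from 6.61 to 3.27, and on the Rps15a member SOX17 went from 9.83 to 4.38. The Lamb1 member split, with GATA6 going from 87.7 to 58.9 RPM and SOX17 from 37.2 to 44.9.

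Closed primed enhancers, 8.61% of all regions, were counted in and near 6 lists of genes. The lists hold few members each, and gains at the other regions of these genes were not counted. For 8 PrE regulators, 2 of the 80 regions assigned to them (inside the gene or within 50 kb of its start) were members, in introns of Gata6 and of Gata4, a GATA factor of the same lineage. Both were Late. In the intron of Gata6, GATA6 on days 0, 2 and 4 was 0.490, 2.52 and 4.95 RPM, and in that of Gata4 it was 0.490, 1.04 and 1.95. At 8 h these regions held 1.19 and 0.471 RPM.

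Basement membrane genes, whose products PrE cells secrete, held 8 members of 119 regions, at Lama1, Lamb1, Lamc1 and Hspg2. GATA6 had gained at 7 of the 8 by day 4 and SOX17 at all 8, against 57.0% and 44.5% of all regions. On chr1:153354224-153357770, 23.8 kb outside the laminin gene Lamc1, GATA6 was 2.12 RPM before Dox and 19.1 after 8 h, and on days 2 and 4 it was 27.5 and 36, while SOX17 went from 4.49 to 34.7 RPM. Endocytic receptor genes, through which PrE takes up nutrients, had 4 members of 43 regions, at Dab2, Lrp2 and Cubn. All 4 were Late, with no GATA6 gain at 8 h and a gain of GATA6 and SOX17 by day 4. Of all regions 33.6% were Late, and 60.4% gained GATA6 at 8 h. At Dab2 (chr15:6259733-6260526), an adaptor of the endocytic machinery, SOX17 on days 0, 1, 2 and 4 was 0.664, 2.17, 4.30 and 18.0 RPM, and with Oct4 siRNA it went from 5.14 to 16.1.

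Genes of the pluripotency network had 7 members of 95 regions, at Nanog, Klf4, Klf5, Prdm14 and Nr0b1. All 7 gained GATA6 at 8 h, against 60.4% of all regions, and none was Late, against 33.6%. At Klf4, a zinc finger factor of ES cells (chr4:55563904-55564510), GATA6 was 0.490 RPM before Dox, 1.62 at 8 h, 5.55 on both days 1 and 2, and 1.97 on day 4, and it went from 9.56 to 3.75 RPM with Oct4 siRNA. Near Nanog (chr6:122751458-122752210, 44.3 kb from its start but nearer to that of Slc2a3) OCT4 was 2.56 RPM before Dox, 8.12 at day 2 and 10.5 at day 4. In an exon of Nr0b1, a nuclear receptor gene (chrX:86195223-86195687), ESRRB was 6.63 RPM before Dox, 24.1 and 4.44 after 8 and 16 h, and 0.263 on day 1. The value at 8 h was the highest of ESRRB on any member, in a column whose values fit a single step. By day 1 ESRRB there was near input (0.173 RPM). Signals of other antibodies varied there too. SOX17 was already 1.76 RPM before Dox and was 3.28 at 8 h. OCT4 was 2.86 RPM before Dox, 1.31 at 8 h and 7.03 at 16 h, and GATA6 was 3.91 at 8 h. On day 1 GATA6, SOX17 and OCT4 were 0.239, 0.336 and 0.369 RPM. Whether these signals are binding was not tested.

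Signaling genes gave 5 members of 47 regions, at Fgfr1, Fgfr2 and Lifr, the receptors of FGF and LIF signals. All 5 gained GATA6 at 8 h (60.4% of all regions), 4 were Transient (38.4%), and none gained SOX17 by day 4 (44.5%). The Early member in Fgfr2 (chr7:130192439-130193603) held 0.98 RPM of GATA6 before Dox and 8.31 after 8 h, then 9.86 and 5.14 on days 2 and 4, with 1.78 in XEN cells. Genes of later lineages gave 3 members of 34 regions, near Pou3f1 and Eomes. Near Eomes, a T-box factor (chr9:118508073-118508769, in an intron of Golga4), GATA6 rose from 0.653 to 6.20 RPM by day 4, with 9.34 in XEN cells, and SOX17 from 0.614 to 8.75. Nearness to a start assigns these regions and does not show that they act on the gene.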

How the data were processed

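The authors trimmed reads with cutadapt, aligned them to mm10 with Bowtie2, removed duplicates by molecular identifiers, called peaks with MACS2 and counted reads per region with bamsignals. They deposited 1 RPM value per region and condition, with replicate libraries merged. The deposited motif values are a FIMO score for the best match per region and its group, and the other columns used are the authors' classes. Of the 105 columns, 14 hold values of accessibility and histone marks and were not used, nor was the authors' DESeq2 call for the siRNA contrast. The inputs of the siRNA cells were not analysed here.

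Changes were taken as log2(RPM + pseudocount), with a pseudocount of 0.158 to 0.195 RPM by factor. No test across regions was run, because replicates share a value. Depths came from the steps of low values, and the lowest value of a column (0.0377 to 0.183 RPM) stands for 1 read per library, or for no read if 1 had been added to each count. The script for calls was tested on simulated data. Regions were named by the 3 highest GATA6 values at 8 h or day 4, SOX17 at day 4 and OCT4 at day 2 from a low start, the 3 largest siRNA changes each way, and 6 gene lists. The members and lists were chosen with earlier results of these data known. Genes and sequences came from RefSeq on GRCm38.p6. Python 3.11.15, numpy 2.4.6, pandas 2.3.3, scipy 1.17.1 and pysam 0.24.0 were used. Alternatives were other pseudocounts, filters and scalings.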

Additional observations from a re-analysis of the deposited data

How the results depend on the processing

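Each share of members past its threshold was recomputed under up to 7 alternatives, and 100 of the recomputed shares stayed within 1.5 times of the reported ones. Subtraction of a column's lowest value and all alternatives for the falls of OCT4, SOX2 and ESRRB, the day 4 gains of OCT4 and SOX2 and the lower GATA6 in XEN cells were chosen after seeing the data. A pseudocount 10 times larger moved every share: GATA6 gain to 30.3% at 8 h and 29.96% at day 4, GATA6 fall to 14.8% and rise to 14.0%, XEN cells above day 4 to 4.03% and below to 1.70%, SOX17 gain to 8.68% at day 1 and 25.4% at day 4, OCT4 gain to 4.63% at day 2 and 7.39% at day 4 and fall to 2.19%, SOX2 gain to 0.712% and 8.54% and fall to 2.63%, ESRRB gain to 0% and fall to 3.37%, GATA6 with Oct4 siRNA to 6.68% lower and 11.8% higher, SOX17 to 0.767% lower and 26.2% higher, and the input rise to 0%. A pseudocount 10 times smaller gave an ESRRB gain of 1.59% and an input rise of 3.56%. With only regions at or above the median of a factor's highest value, SOX17 gains were 49.4% and 76.6%, OCT4 and SOX2 gains at day 2 29.0% and 11.6%, the ESRRB fall 31.7% and the input rise 2.54%. Relative to the median change of all regions, GATA6 gains were 26.9% and 29.5%, SOX17 gains 14.3% and 31.1%, the OCT4 gain at day 2 11.9%, ESRRB gain 0.712% and fall 10.0%, and SOX17 with Oct4 siRNA 15.2% lower and 23.8% higher. The ratio to input gave an ESRRB gain of 2.60%, RPM per kb an input rise of 0.794%, and subtraction of the lowest value an ESRRB gain of 0.904% and an input rise of 3.23%. Whether members lay above or below all regions changed in 16 alternatives of 8 results, all with shares close to each other: the GATA6 fall and rise, both comparisons with XEN cells, the SOX2 gain at day 2, the ESRRB gain, SOX17 lower with Oct4 siRNA and the input rise. No paired analysis was possible because the libraries of a condition share a column, and for the same reason no replicate could be left out. GATA6 before Dox rests on few reads, 3 steps of the lowest value at the median member, and whether 1 read had been added to each count is not known. The depth of the other 5 columns before Dox could not be read.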

Other observations

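The absence of a motif set the course of GATA6 apart at the other end of the score range. The 267 members without a GATA6 motif gained GATA6 at 8 h at 39.7%, but between 8 h and day 4 GATA6 rose at 46.1% of them, against 19.1% of members with a high score. SOX17 gained by day 4 at 56.2% of the former and 41.8% of the latter, although the former were narrower (405 against 712 bp). GATA6 in XEN cells was at least 1 on the log2 scale above day 4 at 22.1% of members without the motif and at 10.1% of those with a high score. Over all regions these differences were smaller, with a GATA6 rise at 35.5% without the motif and 22.1% with a high score, a SOX17 gain at 43.5% and 39.7%, and XEN cells above day 4 at 15.2% and 12.4%.

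In a longer pair of strings, too, gains held more of the compressed string and falls more of the spaced one. These strings share most of their letters with the shorter ones and so are not a separate observation. TTGTATGCA, with no base between the SOX and the OCT letters, was in 12 of the 651 members with an OCT4 gain at day 2 (1.84%) and 22 of the 3001 others (0.733%). It was in 6 of the 559 members with an OCT4 fall at day 4 (1.07%). TTGTNATGCA, with 1 base between, was in 1 of the 651 (0.154%) and 37 of the 3001 (1.23%), and in 25 of the 559 with an OCT4 fall at day 4 (4.47%). Over all regions these shares were 2.65%, 0.572% and 0.741% for the former string, and 0.355%, 1.01% and 2.73% for the latter. The counts are small, and both pairs were chosen after the sequences had been looked at.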
